A study of Mus musculus with 4 samples.

Results

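The transcription factor MYC and 9 groups of genes around ribosome production were followed in lymphocytes of mouse draining lymph nodes. The list holds 38 genes, set by name: Myc itself, nucleolar and rRNA transcription factors, small nucleolar ribonucleoprotein (snoRNP) subunits, factors that assemble the small and the large ribosomal subunit, translation initiation factors, the Ran transport pair, subunits of the CCT chaperonin, enzymes of polyamine and nucleotide metabolism, and mitochondrial proteins. All 38 were among the 32285 genes measured. The cells came from wildtype C57BL/6 mice. EV mice received 100 µg of iPSC EVs under the skin, which are small membrane vesicles released by human induced pluripotent stem cells, and the design text and the methods give day 5 for the harvest. Control mice received PBS by the methods, whereas the sample labels give no treatment and 24 h. Neither source gives the age or sex of the mice, whether animals were pooled, or which iPSC line supplied the vesicles. Each group had 2 biological replicates, with 1 droplet single-cell RNA library each and no enrichment of cells.

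The 4 libraries held 50749656 to 70418672 unique molecular identifiers (UMIs, counts of single mRNA molecules) in 8297 to 9000 barcodes, and 32725 cells passed the filters. Cells were assigned by the UMIs of marker genes and without a Mki67 UMI, which gave 14559 B cells, 5127 CD4 T cells, 5860 CD8 T cells and 605 Tregs. The Treg gate shared 51 to 87 cells per library with the CD4 gate. Between 11 and 24 barcodes were shared by any pair of libraries. Summed B cell markers stood at 12293 to 13907 counts per 1000000 UMIs (CPM) in the B gate and at 16.96 to 38.4 in the CD4 and CD8 gates, but at 725 and 197 in control and 946 and 826 in EV libraries of the Treg gate. T cell markers summed to 99.96 and 85.3 CPM in control B cells against 50.3 and 52.5 in EV B cells, with 4 of the 6 tested called lower and Cd3e at 0 by the gate. Macrophage and monocyte markers summed to 50.7 and 56.4 CPM in control and 107 and 64.6 in EV B cells, with 2 of 9 called higher, and to 349 and 331 against 464 and 394 in CD8 T cells, with 0 of 5 tested called by edgeR and 2 at an unadjusted p under 0.05. Germinal centre B cell markers in B cells summed to 180 and 166 against 203 and 241 CPM, with 1 of 6 called higher by edgeR. Of these markers 3 had positive and 3 negative log2 differences, with a median of -0.03, and DESeq2 called 1 higher and 1 lower. Genes of lymphocyte activation summed to 1223 and 1137 against 1556 and 1564, with 2 of 20 tested called higher and 2 lower. Their differences were positive for 10 and negative for 10. Effector-memory markers summed to 207 and 206 CPM in control and 323 and 264 in EV CD4 T cells, with 1 of 4 called higher. The part of these marker levels in the results was not tested. Cells were deeper after EVs, with a median of 4139.5 and 4903 UMIs in control and 5804 and 5604 in EV B cells. Fewer cells of a kind within a gate and less RNA per cell cannot be told apart in sums over a gate.

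MYC binds DNA with its partner MAX at the E-box and raises transcription of genes for cell growth, and ribosome production is the best known of these programmes. In the nucleolus, RNA polymerase I makes the precursor rRNA, snoRNPs modify it, and large assembly complexes cut and fold it with ribosomal proteins into the subunits. Resting lymphocytes keep little of this machinery, and antigen receptor signals raise MYC and its targets before the cells divide.

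The promoters printed here show E-boxes of members that differ in the position and number of boxes, beside the promoter of Cct3, which had the smallest adjusted p of the list in B, CD4 T and CD8 T cells. They were picked after the values were seen. Promoters of 300 bases (250 before and 50 after the start) came from the RefSeq table for GRCm38.p6, the build to which the authors' mm10 corresponds. It held 31 of the 38 members, and Myc, Npm1, Fbl, Rrp12, Bop1, Cct4 and Srm had no entry. The letters CACGTG, which read the same on both strands, occurred in a promoter of 10 of the 31 members (32.3%), against 8.09% of the 27025 genes in the table. They were found for both small-subunit factors in the table (Wdr43 and Utp20) and both initiation factors, and for 0 of the 5 snoRNP and 0 of the 4 CCT members in the table. A match is a description of the letters and not evidence of binding. Each promoter is written in the direction of transcription with the E-box in capitals.
Cct3 (chr3:88296885-88297184, plus strand): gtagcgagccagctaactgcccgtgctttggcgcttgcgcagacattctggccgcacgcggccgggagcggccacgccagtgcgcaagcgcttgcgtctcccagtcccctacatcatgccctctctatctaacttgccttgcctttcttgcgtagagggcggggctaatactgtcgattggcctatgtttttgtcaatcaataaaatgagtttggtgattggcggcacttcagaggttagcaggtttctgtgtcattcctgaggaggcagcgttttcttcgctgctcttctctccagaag
Eif4e (chr3:138527018-138527317, plus strand): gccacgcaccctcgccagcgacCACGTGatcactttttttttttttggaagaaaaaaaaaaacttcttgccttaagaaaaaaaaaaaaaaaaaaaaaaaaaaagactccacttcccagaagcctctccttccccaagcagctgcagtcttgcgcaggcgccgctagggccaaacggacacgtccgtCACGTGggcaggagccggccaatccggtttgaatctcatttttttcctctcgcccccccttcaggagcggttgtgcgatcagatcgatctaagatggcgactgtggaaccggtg
Nop2 (chr6:125131633-125131932, plus strand): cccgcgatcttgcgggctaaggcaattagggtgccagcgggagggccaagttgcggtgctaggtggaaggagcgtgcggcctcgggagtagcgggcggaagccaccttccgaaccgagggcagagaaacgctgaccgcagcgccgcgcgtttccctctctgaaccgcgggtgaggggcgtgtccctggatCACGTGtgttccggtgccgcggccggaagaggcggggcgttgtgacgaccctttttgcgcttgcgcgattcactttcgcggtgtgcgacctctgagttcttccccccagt
Ran (chr5:129019906-129020205, plus strand): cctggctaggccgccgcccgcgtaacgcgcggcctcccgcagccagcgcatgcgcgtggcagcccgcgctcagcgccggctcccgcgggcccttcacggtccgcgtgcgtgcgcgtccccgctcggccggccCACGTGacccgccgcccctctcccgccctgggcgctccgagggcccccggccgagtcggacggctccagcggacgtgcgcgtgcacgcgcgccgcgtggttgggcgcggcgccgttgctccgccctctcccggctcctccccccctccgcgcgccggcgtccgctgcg
The boxes began 228 and 64 bases before the Eif4e start of the printed window, 60 before that of Nop2 and 118 before that of Ran. A second Eif4e promoter of the RefSeq table (chr3:138525941-138526240) held none. The window of Cct3 held none.

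After EVs, 2 subunits of the CCT chaperonin were the only members that passed the test in any gate. CCT is the barrel-shaped complex that folds actin, tubulin and other cytosolic proteins. Cct3 (chr3:88297116-88321767, plus strand) encodes its gamma subunit. In B cells Cct3 stood at 84.7 and 87.9 CPM in the control and 117.2 and 117.4 in the EV libraries, and in CD4 T cells at 93.9 and 97.0 against 136 and 129. In CD8 T cells the levels were 107 and 109 in control and 148 and 161 in EV libraries. The EV libraries were all above the control libraries in these gates. The log2 fold change was 0.44 ± 0.08 (SE) in B cells, 0.47 ± 0.09 in CD4 T cells and 0.52 ± 0.08 in CD8 T cells, with adjusted p of 0.0274, 0.0247 and 0.00933 (edgeR's quasi-likelihood test, 2 against 2 libraries). The annotation holds 1 pseudogene named for Cct3, and reads shared with it could not be told apart here.

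Cct4 (chr11:22990519-23003780, plus strand), the delta subunit, rose in B and CD8 T cells. In B cells it was at 110.4 and 106 CPM in the control and 149 and 138 in the EV libraries (log2 fold change 0.41 ± 0.09, adjusted p = 0.0424). In CD8 T cells it went from 128 and 124 CPM to 161 and 159, a log2 fold change of 0.34 ± 0.08 (adjusted p = 0.0473). In CD4 T cells it was at 131 and 118 CPM against 147 and 157, a difference of 0.29 ± 0.09 that missed the threshold (adjusted p = 0.149). The other 3 CCT members, Cct2, Cct5 and Cct7, were not called in any gate. Their log2 differences lay between 0.15 and 0.29 in B, CD4 T and CD8 T cells, and the groups of all 5 CCT members were apart with EV higher in each of these gates, as they were for 25.8%, 24.1% and 24.5% of all genes. Differences of all 5 stayed positive under each scaling of the libraries that was tried.

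**Figure D1:**
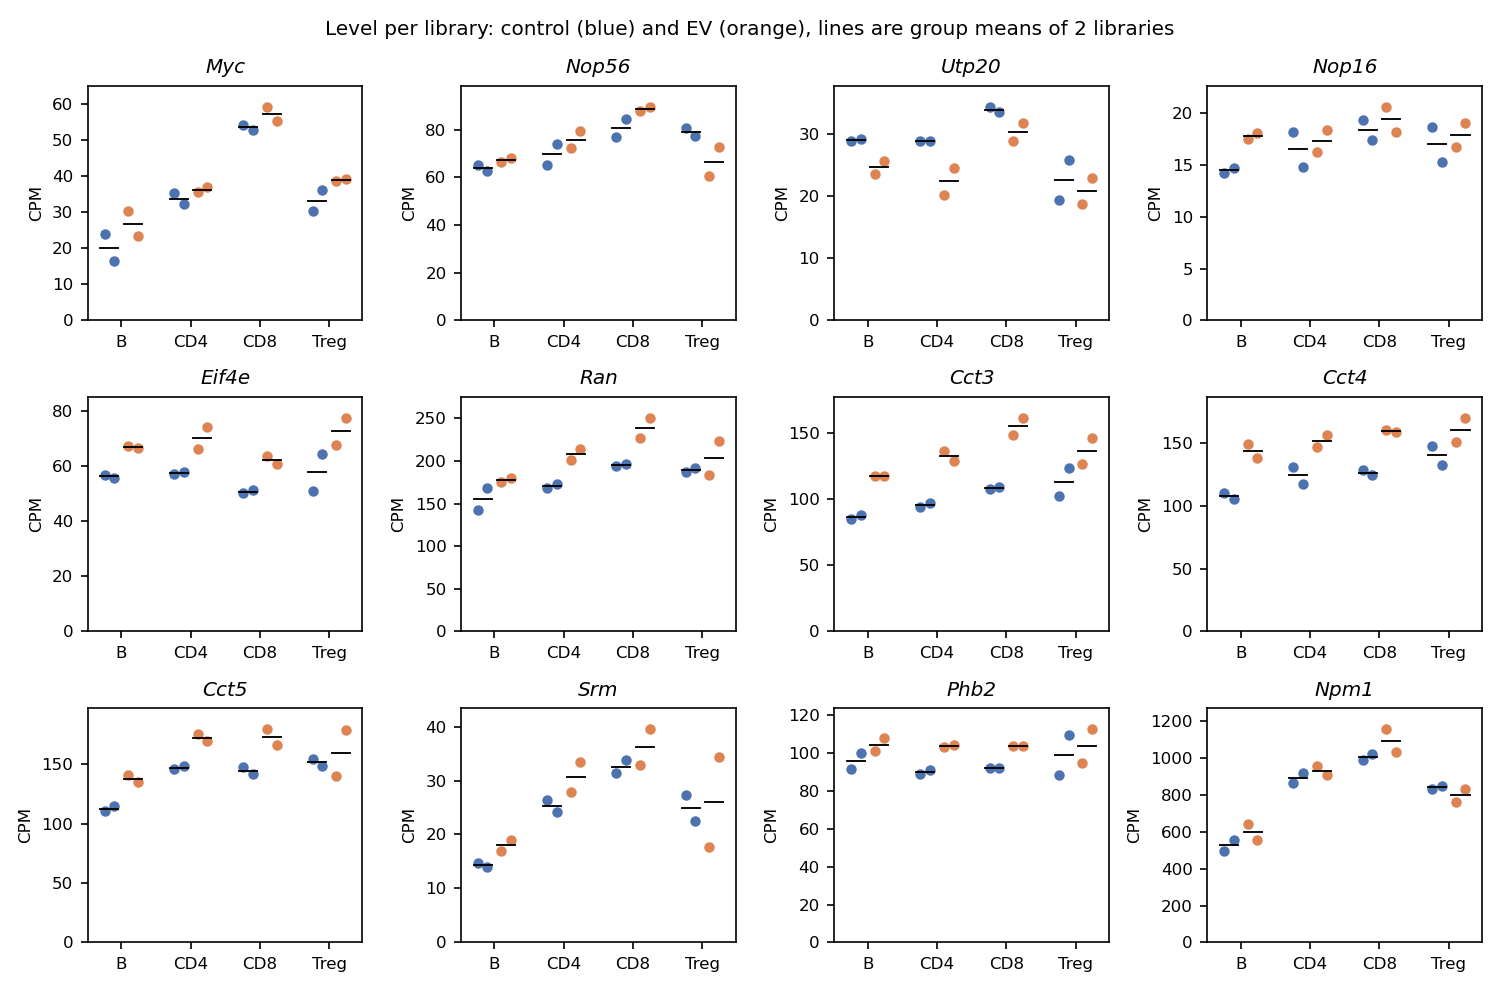
Level of 12 members in each library and gate, in CPM (y axis, from 0), with control libraries in blue, EV libraries in orange and lines for the means of 2 libraries. For Cct3 the EV libraries lie at 117 to 161 CPM in B, CD4 T and CD8 T cells and the control libraries at 84.7 to 109, whereas for Myc in B cells the groups overlap.

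Among members, 2 of 38 were called higher in B cells, 1 of 38 in CD4 T cells and 2 of 38 in CD8 T cells, and 0 lower in each. Of all genes tested, 1.77% were called higher and 1.2% lower in B cells (234 and 159 of 13207), 1.03% and 0.456% in CD4 T cells (122 and 54 of 11850), while CD8 T cells had 1.31% and 0.808% (161 and 99 of 12246). These calls depended on the libraries. Without control library 1 or 2, the adjusted p of Cct3 was 0.359 and 0.152 in B cells, 0.337 and 0.0967 in CD4 T cells, and 0.0565 and 0.0341 in CD8 T cells, while its log2 fold change kept between 0.42 and 0.53. Cct4 lost its calls in B and CD8 T cells in the same fits (adjusted p from 0.303 to 0.366). Without an EV library, by contrast, more members were called in B, CD4 T and CD8 T cells, some of them lower, but so were more of all genes. In fits without 1 library, the log2 fold change of Cct3 ran from 0.42 to 0.475 in B cells. It ran from 0.43 to 0.52 in CD4 T cells and from 0.46 to 0.58 in CD8 T cells. Such a fit assumes that the library left in a group varies like those of the other group. The EV libraries differed more from each other than the control libraries in these gates, so such fits cannot decide which calls hold.

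Heat shock genes moved with the CCT subunits between the groups. Of the 15 genes of this list, which includes HSP70, HSP90 and their co-chaperones, 10 of 13 tested were called higher in B cells, 9 of 13 in CD4 T cells and 10 of 14 in CD8 T cells. Their summed level was 1842 and 2037 CPM in control and 3206 and 3454 in EV B cells, 2191 and 2319 against 3638 and 4297 in CD4 T cells, and 2463 and 2523 against 3773 and 4310 in CD8 T cells. The cold-inducible genes Rbm3 and Cirbp summed to 554 to 620.1 CPM in the control and 312 to 425 in the EV libraries of the same gates. A list of 8 abundant nuclear or rRNA-like transcripts was lower in EV libraries, at 37553 and 33924 CPM in control and 27335 and 22899.6 in EV B cells. The part of these shifts in the CCT result was not tested.

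**Figure D2:**
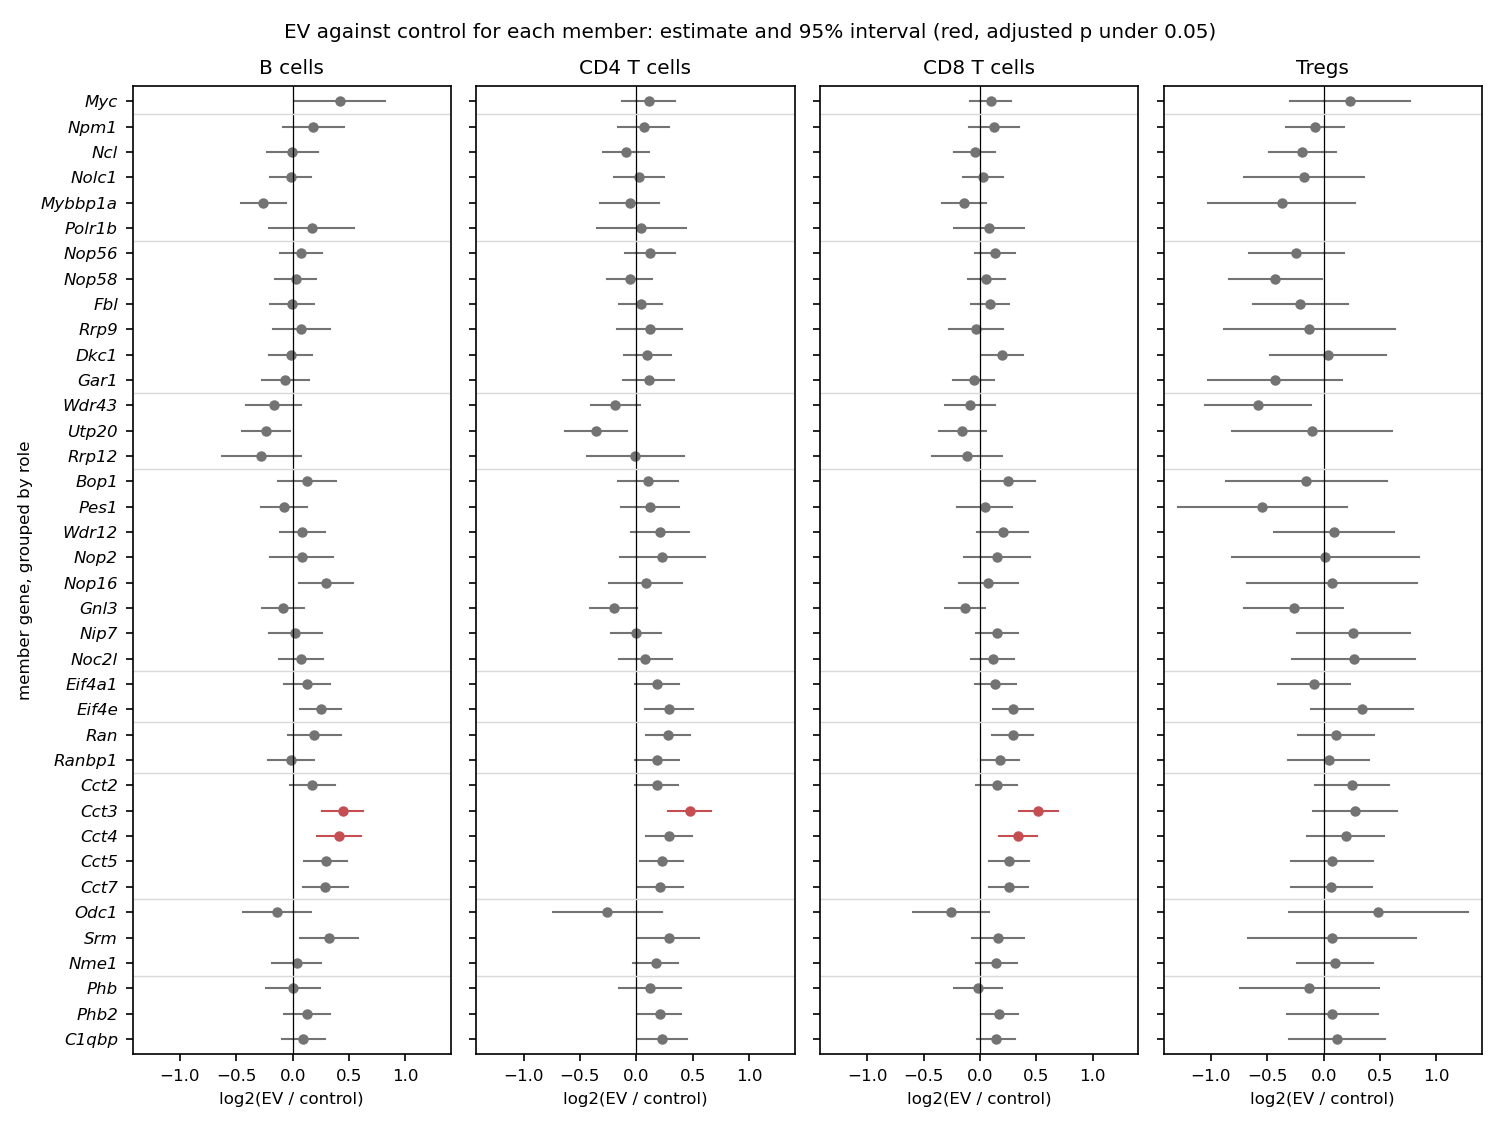
Log2 ratio of EV to control (x axis) for each of the 38 members (y axis, grouped by role) in each of the 4 gates, with the 95% interval of edgeR's fit and called members in red. Cct3 and Cct4 are the called members in B and CD8 T cells and Cct3 in CD4 T cells, and no member is called in Tregs, where Polr1b and Rrp12 were not tested.

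Myc (chr15:61985391-61990374, plus strand), the regulator the list is named for, was not called in any gate. In B cells it stood at 23.9 and 16.3 CPM in control and 30.3 and 23.3 in EV libraries, so the groups overlapped, and the log2 difference was 0.42 ± 0.18 (95% interval 0.01 to 0.82, adjusted p = 0.252, edgeR). Control library 2 was the lowest. Leaving out this library gave 0.17, whereas leaving out EV library 2 gave 0.59. Over all fits without 1 library, the difference of Myc in B cells ran from 0.17 to 0.72. Without the filter on low counts, Myc passed the threshold in B cells (adjusted p = 0.00327, edgeR). In that fit 855 and 556 of 21568 genes were called higher and lower. CD4 T cells had 35.1 and 32.1 CPM against 35.4 and 37.0, and CD8 T cells 54.0 and 52.7 against 59.0 and 55.1. Neither overlapped, and EV libraries lay above control for 24.1% and 24.5% of all genes in these gates. There the differences were 0.11 ± 0.11 and 0.09 ± 0.08, with intervals that ended at 0.35 and 0.28.

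No gene of the nucleolus or of rRNA transcription passed the test. Npm1 and Ncl encode nucleophosmin and nucleolin, the abundant nucleolar chaperones, Nolc1 a snoRNP assembly factor and Polr1b a core subunit of RNA polymerase I. Ncl stood at 369 and 382 CPM in control and 387 and 363 in EV B cells, with a log2 difference of -0.0030 and an interval of -0.23 to 0.22. Npm1 was at 498 and 556 CPM against 642 and 554, which overlapped. Mybbp1a, a nucleolar protein that binds MYB, was the last of these 5 members. It stood at 45.7 and 43.1 CPM in control and 37.3 and 36.8 in EV B cells (-0.26 ± 0.09, adjusted p = 0.154, edgeR). The groups did not overlap, and EV libraries lay below control for 26.4% of all genes there. Leaving out 1 library gave Mybbp1a -0.30 to -0.21 in B cells. In CD4 T cells it was at 43.3 and 40.0 CPM against 35.4 and 43.9, which overlapped.

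The snoRNP subunits showed small differences in B, CD4 T and CD8 T cells. Nop56, Nop58 and Fbl form the core of box C/D particles, which guide methylation of rRNA, Rrp9 belongs to the U3 particle, and Dkc1 and Gar1 serve box H/ACA particles, which guide pseudouridylation. None of the 6 was called. Their differences ranged from -0.06 to 0.08 in B cells, and their 95% intervals all lay between -0.28 and 0.33 there, between -0.26 and 0.40 in CD4 T cells and between -0.28 and 0.38 in CD8 T cells. In Tregs they were wider, from -1.03 to 0.63. Nop56 was at 65.0 and 62.8 CPM in control and 66.3 and 68.3 in EV B cells (0.08 ± 0.08).

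None of the 3 small-subunit members was called, but their differences were all negative in B, CD4 T and CD8 T cells. Wdr43 and Utp20 belong to the processome that makes the small subunit, and Rrp12 helps to export both subunits. Utp20 was at 28.8 and 29.1 CPM in control and 23.6 and 25.6 in EV B cells (-0.24 ± 0.10, adjusted p = 0.225). In CD4 T cells it was at 28.9 and 28.8 CPM against 20.2 and 24.5 (-0.36 ± 0.13, adjusted p = 0.174). The EV libraries were below the control libraries in both gates, as they were for 26.4% and 24.7% of all genes. Leaving out 1 library gave Utp20 -0.30 to -0.18 in B cells and -0.51 to -0.23 in CD4 T cells.

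Among the 8 large-subunit factors, which include the Pes1, Bop1 and Wdr12 (PeBoW) complex, the rRNA methyltransferase Nop2, the GTPase Gnl3, Nip7 and Noc2l, differences in B cells ran from -0.09 to 0.30 and none was called in any gate. The smallest p in B cells belonged to Nop16, at 14.2 and 14.7 CPM in control and 17.5 and 18.0 in EV libraries (0.30 ± 0.11, adjusted p = 0.183). Nop16 in CD4 T cells was at 18.2 and 14.8 CPM against 16.2 and 18.3, so the groups overlapped. Gnl3, also known as nucleostemin, was at 69.0 and 67.7 CPM in control and 66.1 and 62.7 in EV B cells (-0.09 ± 0.08). Its EV libraries lay below the control libraries in all 4 gates. In B, CD4 T, CD8 T cells and Tregs 26.4%, 24.7%, 25.2% and 18.3% of all genes did so.

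The cap-binding factor Eif4e and the nuclear transport GTPase Ran lay higher after EVs without passing the test. Eif4e was at 56.9 and 55.7 CPM in control and 67.1 and 66.7 in EV B cells, and at 50.1 and 51.3 against 63.5 and 60.8 in CD8 T cells. The differences of 0.25 ± 0.08 and 0.29 ± 0.08 had adjusted p of 0.144 and 0.0906. Ran was at 194 and 197 CPM in control and 227 and 249.98 in EV CD8 T cells (0.29 ± 0.08, adjusted p = 0.0985). All EV libraries lay above the control libraries for these genes in B, CD4 T and CD8 T cells, but neither passed the threshold. In these gates 25.8%, 24.1% and 24.5% of all genes had EV libraries above control. Leaving out 1 library gave Eif4e 0.24 to 0.27 in B, 0.21 to 0.37 in CD4 T and 0.27 to 0.33 in CD8 T cells. For Ran it gave 0.077 to 0.33, 0.24 to 0.33 and 0.22 to 0.36. Eif4a1, the helicase that works with Eif4e, was at 165 and 169.7 CPM in control and 191 and 176 in EV B cells (0.13 ± 0.09). Ranbp1, which stimulates GTP hydrolysis by Ran, differed by -0.02 in B cells, 0.18 in CD4 T cells and 0.18 in CD8 T cells.

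Srm, which makes spermidine, was at 14.7 and 14.01 CPM in control and 16.9 and 19.0 in EV B cells (0.32 ± 0.11, adjusted p = 0.176). Leaving out 1 library gave Srm 0.24 to 0.41 in B, 0.15 to 0.41 in CD4 T and 0.015 to 0.28 in CD8 T cells. Odc1, the rate-limiting enzyme of polyamine synthesis, differed between the EV libraries. It was at 30.5 and 15.7 CPM in CD4 T cells against 25.9 and 28.3 in control, so its direction rested on EV library 2. The prohibitin Phb2, of the inner mitochondrial membrane, was at 92.1 and 92.3 CPM in control and 103.8 and 104 in EV CD8 T cells (0.17 ± 0.08, adjusted p = 0.258). Nme1 shares its locus with the annotated gene Gm20390 on the same strand, so its counts are uncertain, and it differed by 0.03 to 0.17 in B, CD4 T and CD8 T cells. Phb, the partner of Phb2, and C1qbp, a matrix protein, lay between -0.02 and 0.23 there, and none of these 6 members was called.

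Across the list, the median log2 difference was 0.08 in B cells, 0.11 in CD4 T cells and 0.13 in CD8 T cells, where the median of all genes tested lay within 0.01 of 0. Without the 5 CCT members it was 0.03, 0.10 and 0.09. EV libraries lay above control libraries for 19 of 38 members and below for 6 in B cells, where 25.8% and 26.4% of all genes did so. The counts were 17 and 5 in CD4 T cells (24.1% and 24.7% of all genes) and 22 and 6 in CD8 T cells (24.5% and 25.2%). Another scaling used no TMM and took library sizes over genes other than ribosomal protein, mitochondrially encoded, heat shock and abundant nuclear or rRNA-like ones. With it the B cell median was 0.0023, and the calls over all B cell genes went from 234 higher and 159 lower to 173 and 245. The same scaling gave CD8 T cells 112 higher and 141 lower calls, and CD4 T cells 71 and 49. Under it or under DESeq2, the sign of 9 of 38 members flipped in B cells, the largest of them 0.03 in size.

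In Tregs, 36 members were tested and edgeR called 0, with 2 of them (Nop58 and Wdr43) at an unadjusted p under 0.05. DESeq2 gave an adjusted p to 8 members and called 0 of these. Over all genes edgeR called 0% higher and 0% lower, with 642 of 8704 at an unadjusted p under 0.05 and 15 called by DESeq2, while a simulated 2-fold change was recovered for 49% of genes at this size, and a change of 0.43 on the log2 scale for 6%. Cct3 stood at 102 and 123 CPM in control and 126 and 146 in EV Tregs, and the log2 difference of 0.28 ± 0.17 had an interval of -0.10 to 0.65. The heat shock list summed to 2192 and 2511 CPM in control and 3902 and 4350 in EV Tregs, with 0 of 11 tested genes called by edgeR, 9 at an unadjusted p under 0.05, while DESeq2 called the 4 to which it gave an adjusted p. Their part in the Treg values was not tested. Members were apart with EV higher for 6 and lower for 7 of 36, where 18.4% and 18.3% of all genes were. Nop58 was at 97.0 and 108 CPM in control and 66.7 and 84.9 in EV Tregs (adjusted p = 0.662).

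Whether the response differed between classes was tested in a joint fit with library as a block. The interaction was called for 0 members in B cells, CD8 T cells or Tregs against CD4 T cells (edgeR), where 1.64%, 0.0851% and 0.113% of all genes were called. At an unadjusted p under 0.05 there were 1, 0 and 5 members, but the share of all genes at that threshold was not counted. The response of Cct3 in B cells differed from that in CD4 T cells by -0.05 (interval -0.23 to 0.13), and that in CD8 T cells by 0.04 (-0.15 to 0.22). For Myc in B cells the difference was 0.27 (-0.07 to 0.60).

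The levels of many members differed between the lymphocyte classes of the control libraries. Against CD4 T cells without Foxp3, 23 members were lower and 1 was higher in B cells, with a median log2 difference of -0.23 over the 38. The fit pooled 16 sums of 4 libraries and 4 gates. Over all genes 28.7% were lower and 27.6% higher. In CD8 T cells 19 members were higher and 0 lower, with a median of 0.21, against 10.3% and 10% of all genes.

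Myc itself followed this order, at 16.1 and 23.7 CPM in B cells, 32.9 and 36.2 in CD4 T cells and 56.4 and 57.3 in CD8 T cells of the control libraries. The 3 classes did not overlap, but the share of all genes for which this held was not counted. The log2 difference from CD4 T cells was -0.80 ± 0.12 in B cells (adjusted p = 6.64e-06) and 0.72 ± 0.10 in CD8 T cells (adjusted p = 1.2e-05). Npm1 stood at 494 and 550.2 CPM in B cells, 888 and 949 in CD4 T cells and 1047 and 1089 in CD8 T cells, which did not overlap either. Srm, at 13.9 and 14.6 CPM in B cells and 25.1 and 26.9 in CD4 T cells, gave the largest difference between these classes, -0.87 ± 0.11.

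Not every member kept this order. Ncl was at 366 and 378 CPM in B cells and 353 and 363 in CD4 T cells, and their difference of 0.06 missed the threshold (interval -0.05 to 0.17). Pes1 was the member called higher in B cells, at 29.7 and 28.3 CPM against 21.8 and 21.5 in CD4 T cells (0.41 ± 0.10). Eif4e was not called in either contrast. In Tregs, Odc1 was higher than in CD4 T cells (0.77 ± 0.21) while Utp20, Nme1 and Npm1 were lower, against 8.14% of all genes higher and 6.35% lower. Median depth differed between the gates, from 4139.5 UMIs in B to 7394 in CD8 T cells of control library 1. With every cell thinned to 2000 UMIs, 11 members were higher in CD8 T cells and 16 were lower and 1 higher in B cells. In Tregs 2 were lower and 0 higher. The shares of all genes called in the thinned fit are not given here, so these counts cannot be set against them.

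**Figure D3:**
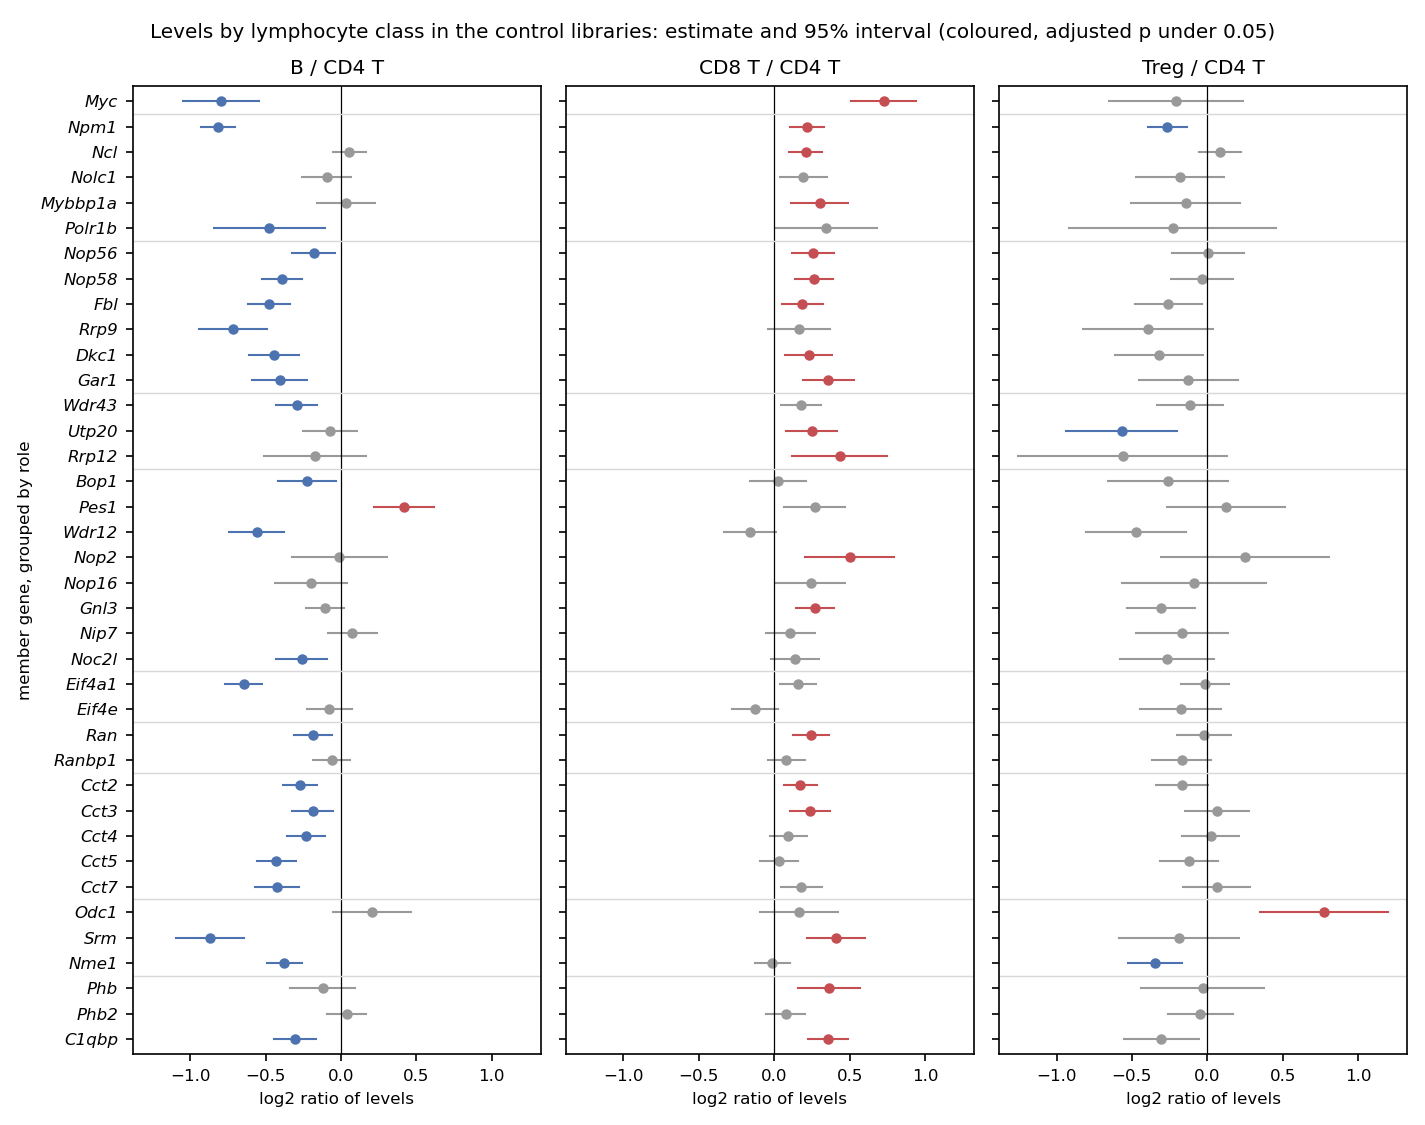
Log2 ratio of the level in B cells, CD8 T cells and Tregs to that in CD4 T cells of the control libraries (x axis) for each member (y axis, grouped by role), with 95% intervals, called members in red where higher and blue where lower. In B cells 23 members are lower, in CD8 T cells 19 are higher, and Myc shows a difference of -0.80 in the first and 0.72 in the second.

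In single cells thinned to 2000 UMIs, members took a mean of 5.98 and 6.16 UMIs per control B cell and 6.59 and 6.25 per EV B cell. In CD4 T cells the means were 7.51 and 7.53 against 8.06 and 8.14, and in CD8 T cells 8.23 and 8.29 against 8.86 and 8.88. The groups did not overlap in these gates, and the ratio of EV to control was 1.06, 1.08 and 1.07. These sums hold all members, the CCT members included. No test is given, since 2 against 2 libraries cannot reach a p under 0.333 in an exact permutation test. Median and quartiles differed by at most 1 UMI between libraries in each of these gates. Without thinning, members took a mean of 13.9 and 16.99 UMIs in control and 21.5 and 19.6 in EV B cells, where cells were also deeper. In B cells the 99th percentile was 22.3 and 24 UMIs in control and 30 and 27 in EV libraries. Summed over the B gate, all members stood at 3074 and 3192 CPM in control and 3365 and 3195 in EV libraries. The CCT members stood at 511 and 524 against 638 and 610 there. The initiation factors were also higher in both EV libraries, whereas the snoRNP, small-subunit and large-subunit sums were lower and the other groups overlapped. These sums were not scaled by TMM. In the TMM-scaled fit of B cells the median difference was 0.010 for snoRNP, 0.076 for large-subunit and -0.24 for small-subunit members. In CD8 T cells the snoRNP sum was higher in EV libraries, and the small-subunit and large-subunit sums overlapped. In CD4 T cells the small-subunit sum was lower, and the snoRNP and large-subunit sums overlapped. Values per cell without the CCT members were not computed.

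**Figure D4:**
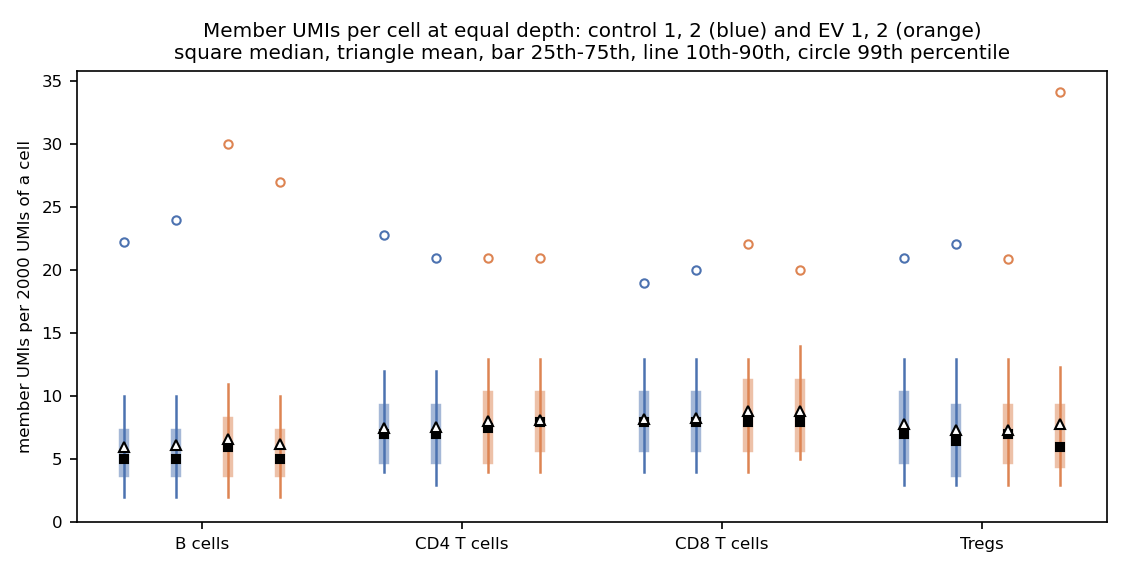
Member UMIs per cell after thinning each cell to 2000 UMIs (y axis), for each library in 4 gates, with medians as squares, means as triangles, quartiles as bars, the 10th to 90th percentile as lines and the 99th percentile as circles. Means of the EV libraries lie above those of control in B, CD4 T and CD8 T cells, and the 99th percentile in B cells reaches 30 in an EV library.

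In every library, B cells with a Myc UMI held more UMIs of the other members than B cells without. Among B cells thinned to 2000 UMIs, 3.87% and 3.15% in control and 4.40% and 3.47% in EV libraries held Myc (7.64% and 6.82% against 11.04% and 9.29% without thinning). Their mean of other member UMIs was 8.27 and 7.52 against 5.84 and 6.08 in cells without Myc in the control libraries, and 9.38 and 10.3 against 6.40 and 6.06 in the EV libraries. The ratio was thus 1.42 and 1.24 in control and 1.47 and 1.69 in EV B cells. It was 1.04 to 1.16 in CD4 T cells and 1.02 to 1.09 in CD8 T cells, where 5.31% to 6.89% and 8.74% to 10.6% of cells held Myc. In Tregs the ratio was 0.87 and 0.88 in control and 0.98 and 1.60 in EV libraries, from 14, 8, 7 and 8 cells with Myc. At 1000 UMIs per cell it was 1.48 and 0.75 in control and 0.42 and 0.83 in EV Tregs, from 4, 8, 2 and 3 cells. None of these classes is known to lack Myc, so the share that free RNA alone would give was not measured. These cells were not independent replicates, and the ratios are a description.

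The wider machinery was given by 222 further genes in 10 lists. In B, CD4 T and CD8 T cells 219 of them were tested, with 3, 2 and 5 called higher and 0 lower, where 1.77%, 1.03% and 1.31% of all genes were called higher. The median differences were 0.03, 0.04 and 0.06. Lists of RNA polymerase I factors (14 genes), snoRNP assembly (11), the small-subunit processome (44), large-subunit assembly (49), initiation factors (26), nuclear transport (17), and polyamine and nucleotide synthesis (21) had 0 called genes in every gate. DESeq2 also called 0 genes of these 7 lists, with an adjusted p for 182, 182 and 181 of their 182 genes in B, CD4 T and CD8 T cells but for 18 in Tregs. Of the 209 genes of all 10 lists tested in Tregs, edgeR called 0, with 12 at an unadjusted p under 0.05, and DESeq2 gave an adjusted p to 23 and called 0 of these.

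Chaperonin subunits were again among the called genes. Hspd1 and Hspe1, the HSP60 and HSP10 subunits of the mitochondrial chaperonin, were called in all 3 gates. Hspd1 was at 75.5 and 77.4 CPM in control and 119 and 122 in EV B cells (0.66 ± 0.08, adjusted p = 0.00623). Hspe1 was at 201 and 231 CPM against 340 and 315 there (0.60 ± 0.11, adjusted p = 0.024). The theta subunit of CCT, Cct8, was called in CD8 T cells, from 131 and 128 to 166 and 165 CPM (0.35 ± 0.08, adjusted p = 0.0393). Cct6a was at 139 and 131 CPM against 147 and 131 in the same cells, a difference of 0.04 with an interval of -0.14 to 0.23, and the difference of Cct6a from Cct3 was not tested.

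In the MYC network, Mlxip and Mxd4 were called, whereas Max, the partner of MYC, stood at 80.6 and 76.2 CPM in control and 96.4 and 102.8 in EV CD4 T cells (0.35 ± 0.09, adjusted p = 0.0869). Mlxip encodes the glucose-responsive partner of MLX, MONDOA, and was at 87.7 and 98.4 CPM in control and 143 and 152 in EV B cells (0.66 ± 0.09, adjusted p = 0.00993). It was also called in CD8 T cells (0.49 ± 0.10). Mxd4, an antagonist of MYC that also binds MAX, was called in CD8 T cells, from 54.0 and 50.5 to 70.9 and 67.3 CPM (0.40 ± 0.08, adjusted p = 0.0305). Of the genes of ribosomal proteins, the final products of this programme, 81 were tested in B cells and 82 in CD4 T and CD8 T cells. EdgeR called 0 of them, with 5, 11 and 8 at an unadjusted p under 0.05, and DESeq2 called 4, 4 and 2, all lower. Of all genes tested by edgeR, 2514 of 13207, 1973 of 11850 and 2236 of 12246 were at an unadjusted p under 0.05 in these gates. In Tregs 81 ribosomal protein genes were tested and 75 of them had negative differences, with 0 called by edgeR and 6 called lower by DESeq2. At an unadjusted p under 0.05 in edgeR there were 17 of them, and 642 of all 8704 genes tested. The genes of these lists with values here were named after their values were seen.

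**Figure D5:**
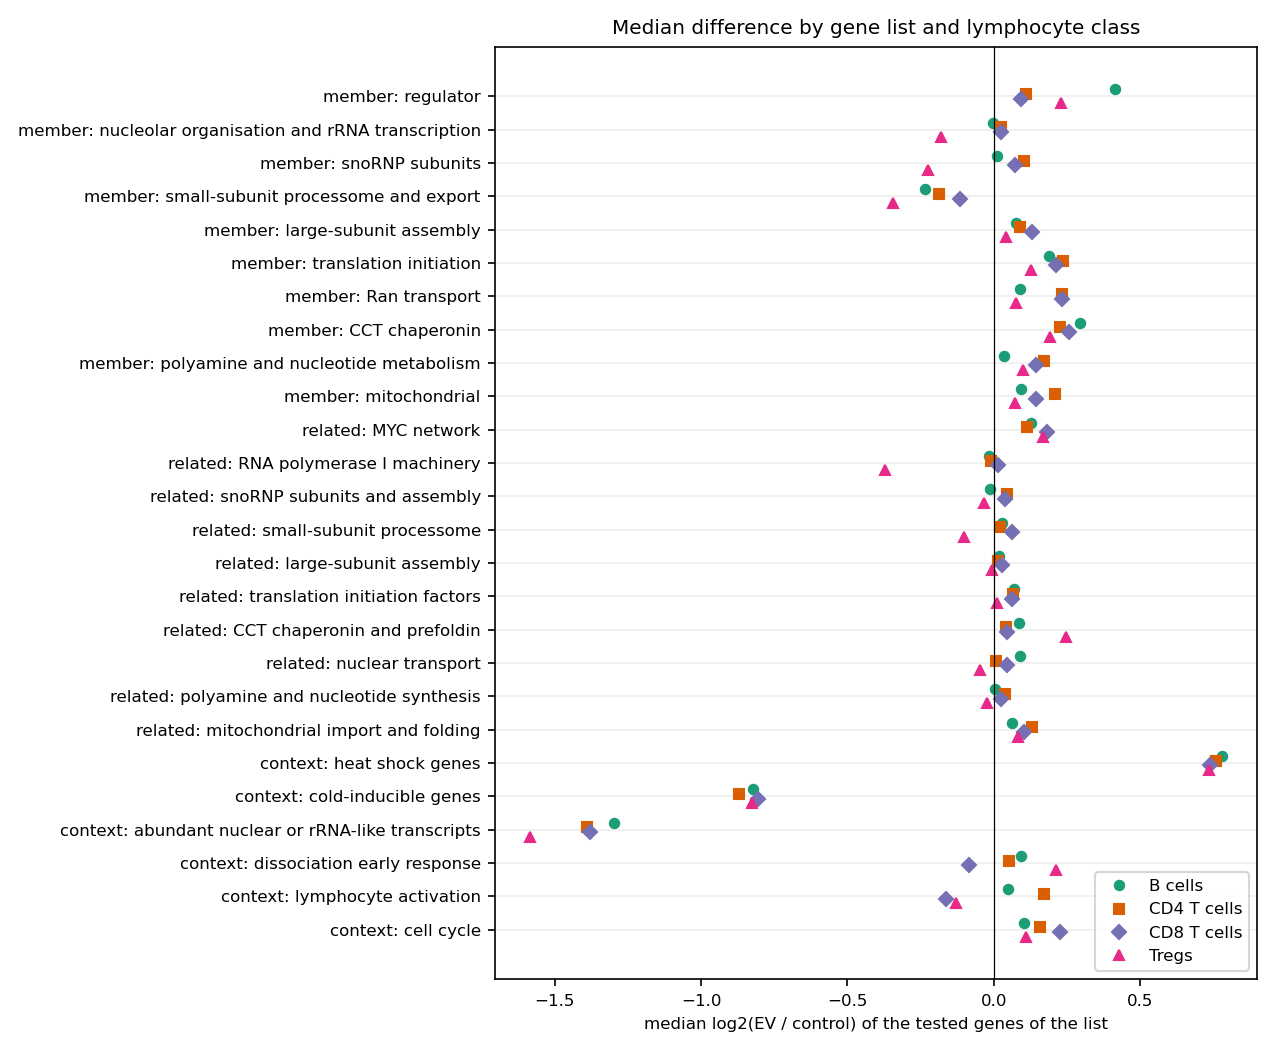
Median log2 ratio of EV to control (x axis) over the tested genes of each list (y axis), for each of the 4 gates. In B, CD4 T and CD8 T cells the nucleolar, snoRNP and large-subunit members lie between -0.0030 and 0.13, the small-subunit members at -0.24 to -0.12, the CCT members at 0.23 to 0.29, and the heat shock list at 0.74 to 0.78.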

How the data were processed

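Draining lymph node cells of 2 Control and 2 EV libraries were profiled by 10x droplet single-cell RNA sequencing. The authors aligned reads to mm10 with Cell Ranger 7.1.0 and deposited filtered UMI count matrices per library, which the scripts used as raw counts. The paper's methods give 2 biological replicates per group. P-values measure the spread between these libraries, and nothing in the labels says how many animals each one held.

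Barcodes with 200 to 5000 genes, at most 20000 UMIs and under 10% mitochondrial UMIs were kept. Gates used marker UMIs: B cells had Cd79a and no Cd3e, CD4 T cells Cd3e and Cd4 but no Cd8a or Cd79a, CD8 T cells Cd3e and Cd8a but no Cd4 or Cd79a, and Tregs Foxp3 and Cd3e. Cells with an Mki67 UMI were left out. Doublets were kept in the main fits, and the alternative without them used Scrublet with an expected rate of 6%, which marked 1.58% to 3.76% of cells. Counts were summed per library and gate and tested with edgeR 4.0.16 (quasi-likelihood, TMM scaling, filterByExpr, R 4.3.3), with Benjamini-Hochberg adjustment over all genes tested and calls at an adjusted p under 0.05. CPM values are scaled by TMM, except sums over lists, which use total UMIs. Intervals are 95% intervals of the fit. Class levels and interactions came from 1 joint fit of sums of gates made disjoint, with library as a block. Cells were thinned to 2000 UMIs with a fixed seed for values per cell, and shallower cells (0 to 37 per library and gate) were left out.

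Alternatives were DESeq2 1.42.0, no filter on low counts, library sizes over other genes, the replicate number as a block, thinning and other cell filters. A log2 limit of 0.5 and leaving out each library were tried too. The library sizes over other genes left out ribosomal protein, mitochondrially encoded, heat shock and abundant nuclear or rRNA-like genes, and that fit used no TMM scaling. A fit without 1 library assumes that the lone library of its group varies like the other group. The fits were tested on simulated data, where a 2-fold change was recovered for 75% of genes in B cells, 70% in CD4 T cells, 83% in CD8 T cells and 49% in Tregs. Changes of each size were given to 100 genes per gate. False calls among unchanged genes numbered 20 in B, 5 in CD4 T, 15 in CD8 T cells and 8 in Tregs. A call near the threshold can therefore be false. A change of 0.43 on the log2 scale, near that of Cct3, was recovered for 24%, 15%, 32% and 6%. The lack of a call alone therefore does not exclude such a change, and the interval of each member has to be read. Those of the snoRNP members in B, CD4 T and CD8 T cells did not reach 0.43 in either direction. Recovery was not computed for the members alone. The median SE in B cells was 0.126 over all genes tested and 0.0912 over the members. Replicates of a group differed beyond sampling noise in every gate, and the EV pair more so than the control pair. Chi-square per degree of freedom, which also grows with the number of UMIs, was 5.29 between control and 32.0 between EV libraries in B cells. It was 4.19 and 11.7 in CD4 T cells, 5.39 and 13.0 in CD8 T cells and 2.42 and 3.17 in Tregs. Named genes were Myc and, in each role, the member with the smallest p in B cells, plus members called in a gate; other genes were named after their values were seen. The members and lists were chosen with earlier results of these data known. Python 3.11.15, scanpy 1.11.5 and numpy 2.4.6 were used, and promoters came from a RefSeq table.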

Additional observations from a re-analysis of the deposited data

Results flagged for a closer look

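Dividing cells were in part outside the comparisons, since cells with an Mki67 UMI were left out of the gates. In the 53 and 62 such cells of the control libraries, members took 0.362% and 0.384% of UMIs, and in the 65 and 69 of the EV libraries 0.579% and 0.428%, a mean of 0.504% that lay above both control libraries. Among the B cells of this set the shares were 0.339% and 0.411% in control and 0.666% and 0.469% in EV libraries, so EV library 1 was the highest. Dividing cells without an Mki67 UMI were not removed. In the gates, cell cycle genes summed to 193 and 182 CPM in control and 210 and 213 in EV CD8 T cells, with 1 of 11 tested called higher. In B cells they summed to 190 and 209 against 206 and 190, and in CD4 T cells to 205 and 206 against 211 and 209, with 0 called. Their part in the results was not tested.

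Barcodes with over 5000 genes or 20000 UMIs were also outside the comparisons. They numbered 19 and 26 in the control and 52 and 52 in the EV libraries, and members took 0.5005% and 0.567% of their UMIs in control and 0.586% and 0.749% in EV libraries, a mean of 0.667% for the EV libraries. These are sums over the gates, and the B cell barcodes among them numbered 3 and 3 in control and 24 and 21 in EV libraries. Within the CD4 gate the order was the other way for the means, at 0.547% and 0.824% in control and 0.430% and 0.556% in EV libraries, which overlapped. Neither difference was tested.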

How the results depend on the processing

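Of the values of single named genes, 603 kept their direction and their side of the threshold under the alternatives tried, 23 lost the threshold, 21 passed it and 20 reversed in sign, none of them called either way. With cells thinned to 2000 UMIs, the log2 difference turned to -0.032 for Nop56 in B cells and -0.10 for Nop16 in CD4 T cells. Leaving out a library gave both signs for Nop16 (-0.068 to 0.23) and Mybbp1a (-0.23 to 0.088) in CD4 T cells and for Nop16 in CD8 T cells (-0.0035 to 0.17). In Tregs it did so for Utp20 (-0.30 to 0.11), Nop16 (-0.059 to 0.23), Mybbp1a (-0.71 to 0.10), Srm (-0.49 to 0.45), Ran (-0.037 to 0.23) and Phb2 (-0.076 to 0.23). Utp20 in Tregs also turned to 0.0083 with no upper cell limits and 5% mitochondrial UMIs, 0.22 without doublets and 0.11 among resting cells, where Nop56 turned to 0.049. The number of called members was 5 in B cells without the filter on low counts, where 855 and 556 of 21568 genes were called higher and lower. It was 1 in B and CD8 T cells and 0 in CD4 T cells with library sizes over other genes or with no upper cell limits and 5% mitochondrial UMIs. With these library sizes, 173 and 245 of 13207 genes were called higher and lower in B cells. There were 112 and 141 of 12248 in CD8 T and 71 and 49 of 11850 in CD4 T cells. The cell limits gave 169 and 95 of 13159 in B and 123 and 59 of 12269 in CD8 T cells. In CD4 T cells they gave 65 and 17 of 11903. Called members numbered 1 in B and CD8 T cells with cells thinned to 2000 UMIs. Of all genes, 206 and 173 of 11388 were then called higher and lower in B and 57 and 23 of 9904 in CD8 T cells. Without doublets 1 member was called in B cells, beside 206 and 101 of 13160 genes. Among resting CD8 T cells 1 member was called, beside 167 and 103 of 11886 genes. Asking for a log2 change of at least 0.5 left 0, 0 and 1 members in B, CD4 T and CD8 T cells. Of all genes it left 189 higher and 140 lower of 13207, 104 and 47 of 11850, and 90 and 74 of 12246. Leaving out a library gave 0 to 10 called members in B cells, 0 to 8 in CD4 T cells and 0 to 10 in CD8 T cells, with the lowest counts without a control library. Without an EV library more of all genes were called as well in these gates. Members called lower there were Mybbp1a, Odc1, Utp20 and Wdr43 in B cells, Odc1 and Utp20 in CD4 T cells and Odc1 in CD8 T cells. The other called members were higher. The median member difference in B cells was 0.10 with DESeq2, 0.12 without the filter, 0.0023 with the other library sizes, 0.056 with thinned and 0.093 with resting cells, and 0.045 to 0.11 leaving out a library. In CD4 T cells it was 0.054 with the other library sizes and 0.067 to 0.17 leaving out a library. In CD8 T cells it was 0.14 with DESeq2, 0.073 with the other library sizes, 0.080 with thinned cells, 0.16 with no upper cell limits and 0.11 to 0.12 leaving out a library. In Tregs it was -0.13 with thinned cells and -0.099 to 0.041 leaving out a library. Thinning gave 11 members that differed in level between CD8 and CD4 T cells and 2 between Tregs and CD4 T cells. The shares of all genes in that fit are not given here. At 1000 UMIs per cell CD4 T cells with Myc held 1.04 times (0.97 in control library 2) and CD8 T cells with Myc 1.09 times the member UMIs of those without, and EV over control stood at 1.08 for CD8 T cells. The cause of these shifts was not tested, except that fewer libraries or fewer UMIs entered some fits.

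With the replicate number as a block, 4 members were called in B cells (Myc and Cct7 added), 1 in CD4 T cells, 4 in CD8 T cells (Eif4e and Ran added) and 0 in Tregs, and 1406, 743, 1006 and 46 genes in all against 393, 176, 260 and 0 without the block. The correlations of same-numbered deviations over genes were 0.0208, 0.0740, 0.106 and -0.0642. With 2 pairs, these cannot decide whether the numbers pair the libraries. Treg sums came from 112 to 201 cells per library, against 914 to 4819 in the other gates.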
